A study of Mus musculus with 9 samples.

Results

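The genes described here encode the machinery of mitosis, followed in the seminal vesicle of mice at 3 ages. The set holds 56 genes, listed by name for what their proteins do. They were chosen with earlier results of these data known. Their counts beside those of all tested genes therefore describe the set and are not independent evidence. They cover chromosome structure and condensin, the mitotic cyclins and kinases, the chromosomal passenger complex, the centromere and kinetochore, the spindle checkpoint, spindle assembly factors, kinesin motors and cytokinesis. All 56 were found among the 53379 genes of the count table, and all 56 were among the 16067 genes with enough counts to be tested.

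Seminal vesicles, paired glands whose secretion forms a large part of semen, were profiled by bulk sequencing of total RNA at 3, 13 and 21 months of age, with 3 libraries per age and 9 in all. The labels give the tissue and the age of each library and name no strain, genotype or treatment. They do not say whether the replicates of an age came from separate animals, so the p-values measure only the spread between these libraries, which may be technical. The design asks how the tissue's transcripts differ with age.

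In mitosis the kinase made of Cdk1 and a B-type cyclin drives entry, condensin compacts the chromosomes, and kinetochores built on the centromere attach them to the microtubules of the spindle. A checkpoint holds the anaphase-promoting complex inactive until every chromosome is attached. Cyclin B is then destroyed, the chromatids part, and the central spindle directs the cleavage of the cell. Transcripts of most of these genes accumulate late in the cell cycle, so that in a tissue where few cells divide they are scarce. In bulk RNA, fewer dividing cells and less RNA per dividing cell cannot be told apart.

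The libraries held 16536160 to 24791943 counts, and the biological coefficient of variation over all tested genes was 22.4%. Levels are given as CPM, counts scaled to a common library size, after TMM scaling, and 3 counts in 1 library correspond to 0.108 to 0.213 TMM CPM. The 56 genes were scarce throughout. Their share of all counts was 0.0242% to 0.0283% in 3-month libraries, 0.00669% to 0.00891% in 13-month libraries and 0.00993% to 0.0210% in 21-month libraries. Per kilobase of exon, their mean level at 3 months ranged from 0.0652 TMM CPM for Cit to 7.58 for Smc4, with a median of 0.696, beside a median of 2.08 over all tested genes. At least 10 counts in all 9 libraries were reached by 27 of the 56 genes. A further limit is that 14 would not have passed the filter on low counts without their 3-month libraries. These were Ccnb1, Plk1, Mybl2, Ndc80, Nuf2, Spc24, Bub1, Ttk, Ube2c, Kif14, Kif18b, Kif2c, Cep55 and Cit. Any fall of these genes against 3 months is to be read with that limit. Of the 21-month libraries, replicates 1 and 2 stand apart from the rest. The summed level of 6 prostate epithelium markers was 16060 TMM CPM in replicate 1 and 976 to 3043 in the other 8 libraries. Of these markers 1, Spink1, had enough counts to be tested. Its mean was 2735, 2431 and 1098 TMM CPM at 3, 13 and 21 months, so it made up most of the sum at 3 and 13 months. The summed level of 6 adipocyte markers was 103 and 1090 TMM CPM in replicates 1 and 2, and 1.498 to 8.87 in the other 7 libraries. Nerve, endothelial, macrophage and fibroblast markers also had their highest sums in 21-month replicate 2, at 33.5, 130.4, 259 and 863 TMM CPM.

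Mitosis transcripts were lower at 13 months than at 3 months almost throughout the set. Of the 56 genes, 30 (53.6%) were lower and 0 higher at an adjusted p under 0.05 in the edgeR quasi-likelihood test with Benjamini-Hochberg adjustment over all tested genes. Over all 16067 genes, 66 (0.411%) were lower and 7 (0.0436%) higher, so that the 30 made up 45.5% of all genes called lower. All 56 estimates were negative, and 55 were lower and 0 higher at an unadjusted p under 0.05, beside 3.75% lower and 3.49% higher over all tested genes. The median log2 fold change of the set was -2.21, against 0.01 over all tested genes. It ranged from -3.80 for Ccnb1 to -0.17 for Mybl2. In 55 of the 56 genes all 13-month libraries lay below all 3-month libraries, a pattern that 9.33% of all tested genes showed, and Mybl2 was the exception. The mean at 13 months was 21.6% of the mean at 3 months for the median gene, with a range of 7.05% to 87.7%. These medians, ranges and counts include the 14 genes that needed their 3-month libraries to pass the filter, Ccnb1 and Mybl2 among them. Apart from the calls, they were not determined without those 14.

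The number that passed the test depended on single libraries. Without 3-month replicate 1, 2 or 3 in turn, 2, 0 and 7 genes passed at 13 against 3 months, and without 13-month replicate 1, 2 or 3, 11, 5 and 6 did. In each of these 6 fits, 54 or 55 genes were lower at an unadjusted p under 0.05, and of the 56 estimates that of Mybl2 alone turned positive, without 3-month replicate 2. DESeq2 called 47 lower and limma-voom 30. Among the 42 genes that the older libraries alone would have carried over the filter on low counts, 24 were called lower.

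At 21 months the set was again lower than at 3 months. In the edgeR quasi-likelihood test 29 genes (51.8%) were lower and 0 higher, beside 123 (0.766%) lower and 202 (1.26%) higher over all tested genes. Estimates were negative for 54 genes, and 51 were lower and 0 higher at an unadjusted p under 0.05, beside 10.3% lower and 14.1% higher over all tested genes. Among the 42 genes that the older libraries alone would have carried over the filter, 24 were called lower. DESeq2 called 41 lower and limma-voom 26, and neither called any higher. The median log2 fold change was -1.55, against 0.01 over all tested genes, with a range of -3.10 for Ttk to 0.32 for Mybl2. All 21-month libraries lay below all 3-month libraries for 52 genes, a pattern shown by 14.7% of all tested genes. The exceptions were Mybl2, Spc25, Anln and Cit. The mean at 21 months was 33.9% of that at 3 months for the median gene, with a range of 10.95% to 121.9%. The medians, ranges and count without overlap again include the 14 genes that needed their 3-month libraries, Ttk and Mybl2 among them.

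Here too the count of calls moved with single libraries. Without 3-month replicate 1, 2 or 3 the edgeR test called 0 genes at 21 against 3 months, with 46, 46 and 49 lower at an unadjusted p under 0.05. Without 21-month replicate 1 it called 33 and without replicate 2 it called 9. In replicate 3 the summed prostate and adipocyte markers were no higher than in the highest 3- and 13-month libraries, where Spink1 made up most of the prostate sum. With replicate 3 as the only 21-month library the median log2 fold change was -1.94. That fit assumes that the lone library varies like those of the other ages.

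Between the older ages no member passed the test. The edgeR quasi-likelihood test at 21 against 13 months called 0 of the 56 genes in either direction, beside 0 (0%) lower and 1 (0.00622%) higher over all tested genes. The smallest adjusted p was 0.197, for Nusap1. At an unadjusted p under 0.05, 19 genes were higher and 0 lower, beside 10.1% higher and 5.64% lower over all tested genes. DESeq2 called 1, Anln, and limma-voom 0. Estimates were positive for 51 genes and negative for Smc4, Sgo1, Ttk, Ckap2l and Kif4, with a median log2 fold change of 0.60 against 0.00 over all tested genes. All 21-month libraries lay above all 13-month libraries for 21 genes, a pattern of 7.99% of all tested genes, and all below for Sgo1 alone. For 49 genes the mean at 21 months lay between the means at 13 and 3 months. The shares over all tested genes were not determined for the all-below pattern or for such an intermediate mean. These counts therefore only describe the set, and no return towards the 3-month level is concluded from them. Without 21-month replicate 3, which leaves the libraries with the prostate and adipocyte transcripts, 5 genes passed (Top2a, Bub1, Kif15, Anln and Aspm), while 7.43% of all tested genes were called in either direction. With replicate 3 as the only 21-month library 0 passed, 1 was higher at an unadjusted p under 0.05, and the median was 0.36.

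Calls at 13 and at 21 months against 3 months, which share the 3-month libraries, coincided for 23 genes. At 13 months alone 7 were called (Top2a, Ncapd2, Smc2, Plk1, Bub1, Bub1b and Kif20b), at 21 months alone 6 (Smc4, Melk, Sgo1, Ttk, Hmmr and Ckap2l) and at neither age 20. The direct comparison of 21 with 13 months called none of these 13 genes in the edgeR test. The median log2 fold change of a role group ranged from -2.68 to -1.59 at 13 against 3 months and from -2.11 to -1.10 at 21 against 3 months.

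**Figure D1:**
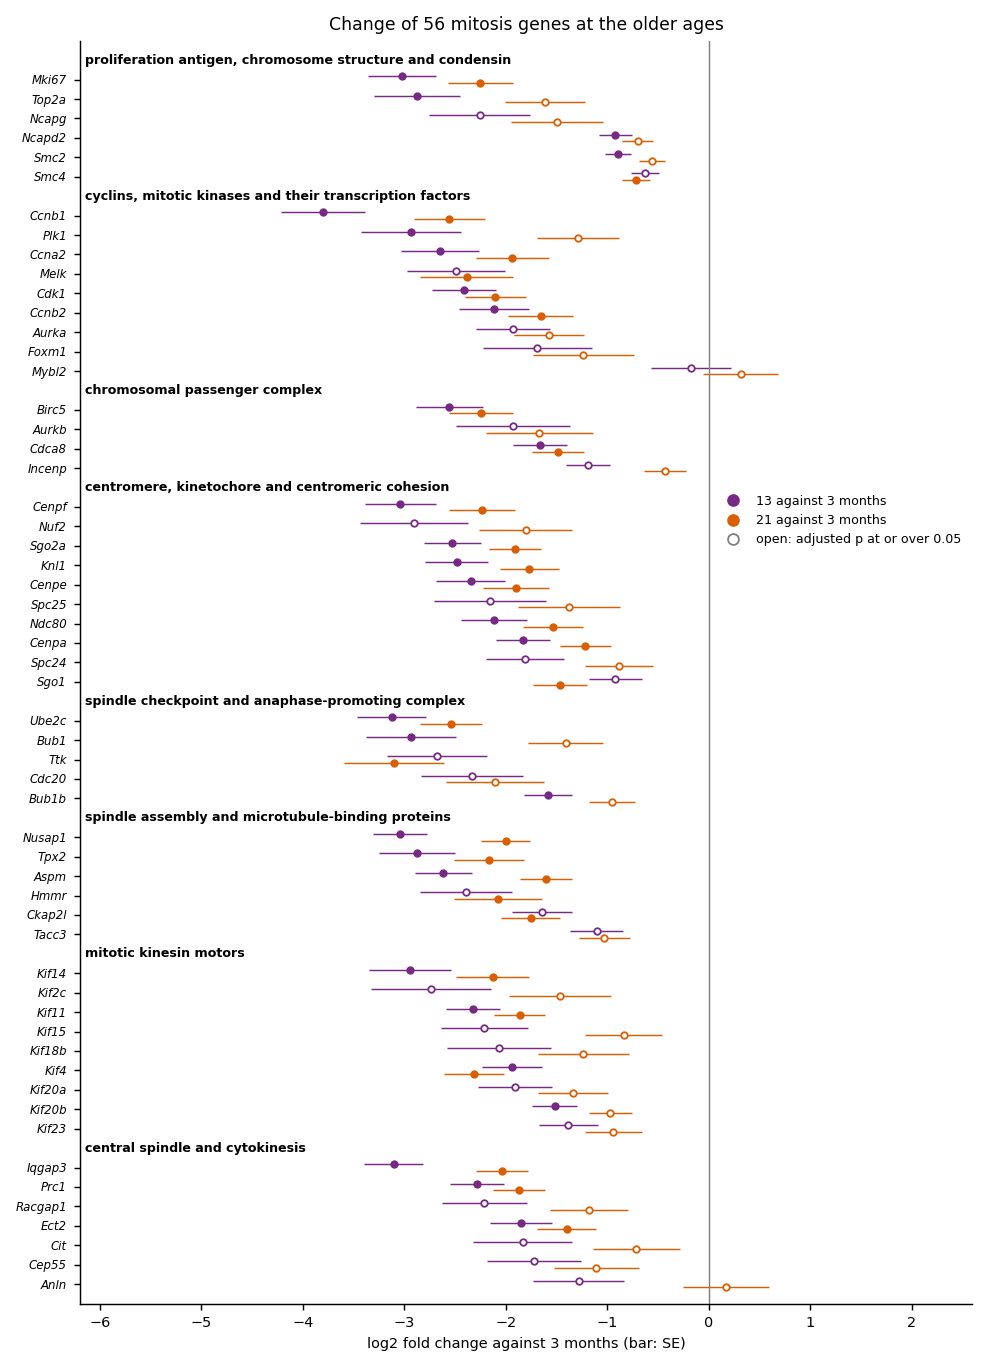
Log2 fold change (x axis, bars: SE) of each of the 56 mitosis genes at 13 against 3 months (purple) and 21 against 3 months (orange), grouped by role, with filled points for an adjusted p under 0.05. All 56 purple points lie left of 0, and Mybl2 and Anln are the 2 genes whose orange point lies right of it.

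Added up per library, the 56 genes gave 327, 332 and 277 TMM CPM at 3 months, 94.9, 90.2 and 74.2 at 13 months, then 134, 119 and 102 at 21 months. The means were 311.9 ± 30.3, 86.5 ± 10.9 and 118 ± 16.0 TMM CPM (SD, n = 3 each). The 3-month libraries stood apart from the other 6, and the sums of the 21-month libraries all lay above those of the 13-month libraries. The sum at 13 months was 27.7% and that at 21 months 37.8% of the sum at 3 months. For 54 genes the highest of the 9 libraries was a 3-month library, and for 49 the lowest was a 13-month library. Within an age the genes tended to be low in the same library: 32 had their lowest 3-month value in replicate 3, 34 their lowest 13-month value in replicate 3 and 36 their lowest 21-month value in replicate 3. The number of genes above all 13-month libraries was 40, 37 and 26 in 21-month replicates 1, 2 and 3, and 53, 53 and 55 lay below all 3-month libraries. For these counts of genes by library the shares over all tested genes were not determined, so the counts only describe the set.

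**Figure D2:**
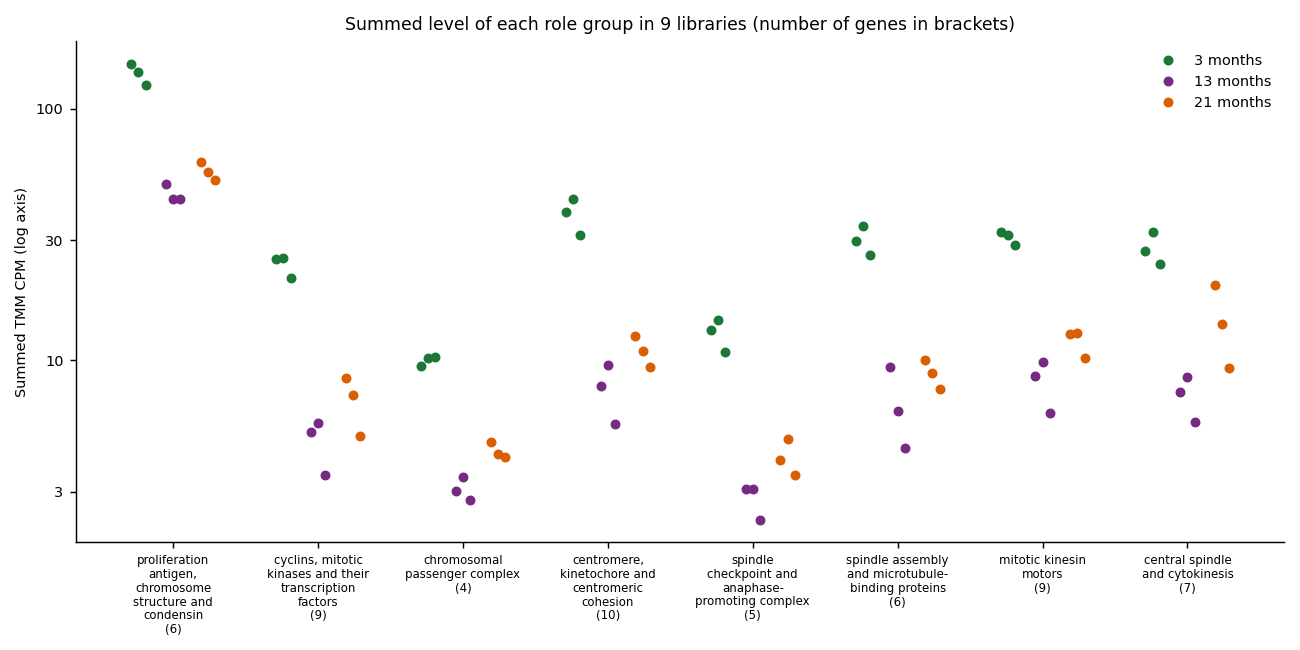
Summed TMM CPM (log axis) of the members of each of the 8 role groups in the 9 libraries, 1 point per library. In every group the 3-month points lie above all points of the other ages, and the central spindle and cytokinesis group spreads most at 21 months (19.9, 14.0 and 9.31 TMM CPM in replicates 1, 2 and 3).

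**Figure D3:**
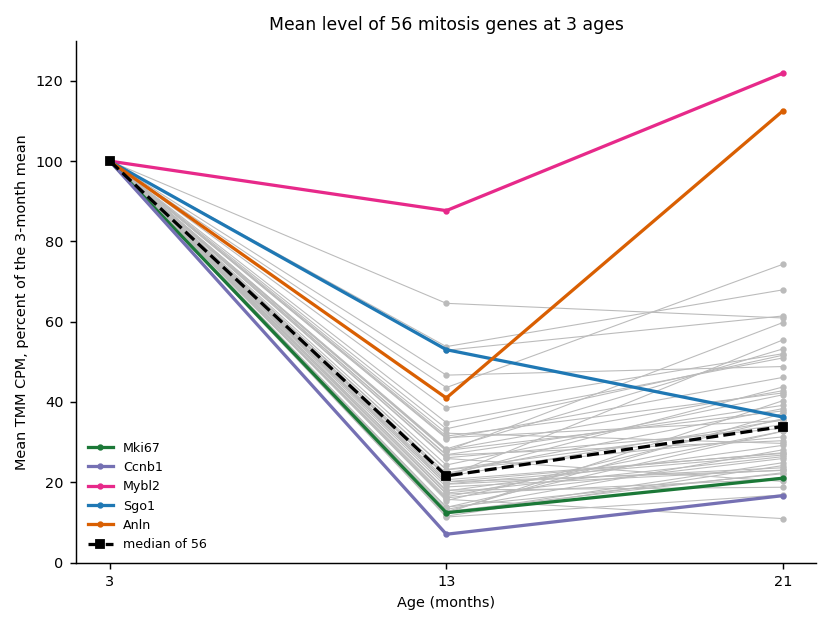
Mean TMM CPM of each of the 56 genes at 3, 13 and 21 months as a percent of its own 3-month mean, with 5 genes coloured and the median dashed. The median falls to 21.6% at 13 months and stands at 33.9% at 21 months, with Mybl2 and Anln above 100% at 21 months and Sgo1 lower at 21 than at 13 months.

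Promoters of many mitosis genes carry CCAAT boxes, bound by the factor NF-Y, and the cell cycle genes homology region, an element near the start site that the DREAM and MuvB complexes use to silence these genes in resting cells and to switch them on late in the cycle. RefSeq promoter sequences of build GRCm38.p6, 250 bases before to 50 after an annotated start, were matched for 48 of the 56 genes (52 windows). Aurkb, Tpx2, Foxm1, Spc24, Ccna2, Smc4, Kif20a and Incenp were not matched. Both strands were searched for CCAAT, and for TTTGAA or TTTAAA as the letters of the homology region. Overlapping matches were each counted. The homology region letters stood in 80.8% of the members' windows and in 27.6% of all 32851 windows. TTTGAA alone stood in 75.0% and 17.9%, CCAAT in 69.2% and 37.4%, and both elements in 61.5% and 10.7%. A match describes letters in a window and is not a measured binding site.

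Stretches of 120 bases are shown for the proliferation marker Mki67, for Cdk1 and its cyclin Ccnb1, for Ube2c and Top2a, whose 13-month estimates are among the lowest of their groups, and for Nusap1, which had the smallest adjusted p of the 56 genes at 13 against 3 months. They run 5′ to 3′ on the gene's strand. Capitals mark the CCAAT box, which reads ATTGG where it lies on the other strand. They also mark the homology region letters, where TTTGAA on the other strand reads TTCAAA. The Mki67 stretch covers bases -200 to -81 before the start (chr7:135716460-135716579, minus strand), and the others cover bases -120 to -1. Their positions are chr10:69352913-69353032 for Cdk1 (minus strand), chr13:100786487-100786606 for Ccnb1 (minus), chr2:164769809-164769928 for Ube2c (plus), chr11:99024190-99024309 for Top2a (minus) and chr2:119618178-119618297 for Nusap1 (plus). The start is that of RefSeq. GENCODE places the start of 3 of these genes further upstream, so that 84 of the 120 bases of Ccnb1, 31 of Ube2c and 26 of Cdk1 lie inside the gene as GENCODE annotates it.
Mki67: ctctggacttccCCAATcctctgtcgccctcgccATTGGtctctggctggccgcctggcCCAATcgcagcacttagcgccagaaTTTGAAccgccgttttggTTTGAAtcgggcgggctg
Cdk1: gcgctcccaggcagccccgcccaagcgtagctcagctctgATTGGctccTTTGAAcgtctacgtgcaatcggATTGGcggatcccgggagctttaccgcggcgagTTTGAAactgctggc
Ccnb1: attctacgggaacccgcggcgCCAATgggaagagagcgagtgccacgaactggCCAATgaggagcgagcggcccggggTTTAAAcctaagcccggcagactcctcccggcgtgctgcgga
Ube2c: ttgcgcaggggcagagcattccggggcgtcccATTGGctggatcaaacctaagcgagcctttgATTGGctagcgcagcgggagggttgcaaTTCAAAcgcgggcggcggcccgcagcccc
Top2a: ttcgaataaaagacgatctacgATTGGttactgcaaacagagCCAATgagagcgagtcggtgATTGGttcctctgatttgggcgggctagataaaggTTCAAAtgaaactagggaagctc
Nusap1: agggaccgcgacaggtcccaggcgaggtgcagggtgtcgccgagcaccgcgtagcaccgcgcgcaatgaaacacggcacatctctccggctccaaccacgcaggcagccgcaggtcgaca
The first 5 stretches hold 2 or 3 CCAAT matches upstream of 1 or 2 homology region matches, apart from Cdk1, where the matches alternate, and the Nusap1 stretch holds neither.

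The genes were also split by the elements in their windows. The 39 genes with the homology region letters had a median log2 fold change of -2.26 at 13 against 3 months and 25 calls, and the 9 genes without them -2.49 and 3 calls. The 33 genes with CCAAT had a median of -2.28 and 22 calls, and the 15 without it -2.21 and 6 calls. These splits were not tested.

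**Figure D4:**
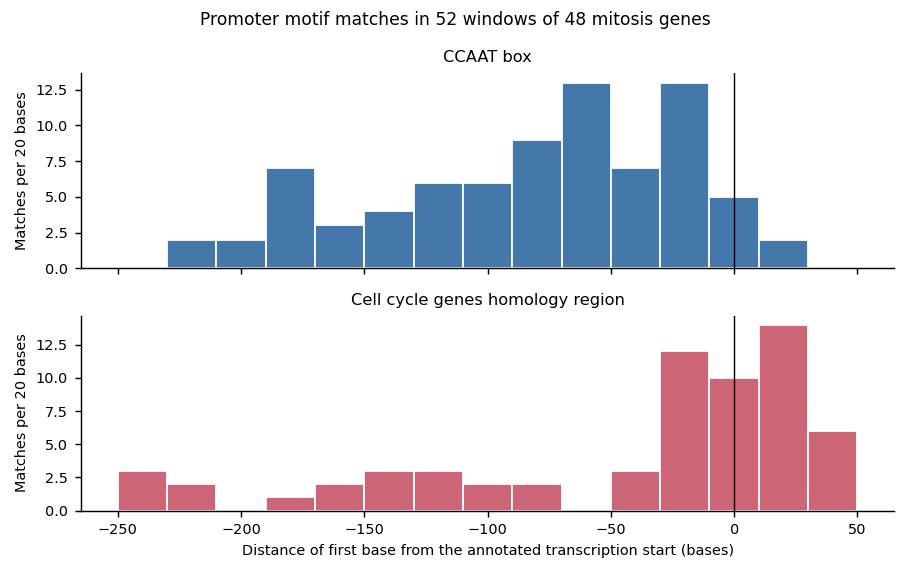
Number of matches per 20 bases (y axis) to CCAAT (top) and to the cell cycle genes homology region (bottom) by distance from the annotated transcription start (x axis, in bases) in the 52 windows of 48 genes. The median first base of a match is at -68 for CCAAT and at -17 for the homology region, whose matches are densest around the start.

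In what follows a log2 fold change at 13 or at 21 months is against 3 months unless another age is named, and its error is the SE. Among the 6 genes of the proliferation antigen, chromosome structure and condensin, 4 fell at 13 against 3 months (Mki67, Top2a, Ncapd2 and Smc2) and 2 at 21 against 3 months (Mki67 and Smc4). Mki67 (ENSMUSG00000031004, GRCm38 chromosome 7, 135689784 to 135716361), the gene of Ki-67, which coats mitotic chromosomes, had 54.3, 55.2 and 44.1 TMM CPM at 3 months, 8.34, 7.77 and 2.95 at 13 months, then 13.0, 10.4 and 8.85 at 21 months. The ages did not overlap, with every 21-month library between the other ages. The log2 fold change was -3.02 ± 0.33 (SE) at 13 against 3 months (adjusted p = 0.00914) and -2.25 ± 0.32 at 21 against 3 months (adjusted p = 0.0202). Smc4 (ENSMUSG00000034349, chromosome 3, 69004738 to 69034623), an ATPase core subunit of condensin, had 40.4, 38.4 and 39.7 TMM CPM at 3 months, 27.0, 21.2 and 28.4 at 13 months, then 20.5, 25.6 and 26.2 at 21 months. It stayed high beside the other members, and its older libraries overlapped each other but not the 3-month ones. It changed by -0.63 ± 0.14 at 13 months (adjusted p = 0.122) and by -0.72 ± 0.14 at 21 months (adjusted p = 0.0426). Of the other condensin subunits Smc2, the partner of Smc4, was at -0.89 and Ncapd2 at -0.92 at 13 against 3 months, and Ncapg at -2.26 without passing the test. Ncapg was also at -1.49 at 21 months. Top2a, the topoisomerase that untangles sister chromatids, was at -2.87 at 13 months and at -1.61 at 21 months.

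Of the 9 cyclins, mitotic kinases and transcription factors, 5 fell at each older age, with Ccna2, Ccnb1, Ccnb2 and Cdk1 among them at both ages, Plk1 at 13 months and Melk at 21 months. Cdk1 (ENSMUSG00000019942, chromosome 10, 69335146 to 69352938), the kinase that drives mitotic entry, had 5.82, 5.39 and 4.49 TMM CPM at 3 months, 1.18, 0.835 and 0.940 at 13 months, then 1.08, 1.77 and 0.772 at 21 months. Both older ages lay below 3 months and overlapped each other. Its log2 fold change was -2.41 ± 0.31 at 13 months (adjusted p = 0.0144) and -2.10 ± 0.30 at 21 months (adjusted p = 0.0202). Ccna2 (ENSMUSG00000027715, chromosome 3, 36564865 to 36572150), cyclin A2, had 6.51, 6.67 and 6.003 TMM CPM at 3 months, 1.12, 1.51 and 0.448 at 13 months, then 2.04, 1.84 and 1.09 at 21 months. The 3-month values lie close together and the older ones spread more. The change was -2.65 ± 0.39 at 13 months (adjusted p = 0.0221) and -1.94 ± 0.36 at 21 months (adjusted p = 0.0400).

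Ccnb1 (ENSMUSG00000041431, chromosome 13, 100778650 to 100786570), cyclin B1, the partner of Cdk1, had the lowest estimate of the set at 13 against 3 months. It is one of the 14 genes that needed their 3-month libraries to pass the filter. It held 34, 45 and 23 raw counts at 3 months, 4, 2 and 3 at 13 months, then 11, 11 and 7 at 21 months. In TMM CPM it had 1.96, 3.19 and 1.59 at 3 months, 0.237, 0.104 and 0.134 at 13 months, then 0.409, 0.396 and 0.318 at 21 months. The 3 ages did not overlap. The log2 fold change was -3.80 ± 0.41 at 13 months (adjusted p = 0.00914) and -2.55 ± 0.35 at 21 months (adjusted p = 0.0202). Mybl2 (ENSMUSG00000017861, chromosome 2, 163054687 to 163084688), the transcription factor B-Myb, which joins the MuvB complex at late cell cycle promoters, is another of these 14. It held 6, 9 and 7 raw counts at 3 months, 7, 9 and 9 at 13 months, then 18, 21 and 8 at 21 months. It had 0.346, 0.639 and 0.483 TMM CPM at 3 months, 0.414, 0.469 and 0.403 at 13 months, then 0.668, 0.757 and 0.363 at 21 months. The ages overlapped, with log2 fold changes of -0.17 ± 0.40 at 13 months (adjusted p = 0.962) and 0.32 ± 0.37 at 21 months (adjusted p = 0.624). Foxm1, a transcription factor of the same late genes, was at -1.69 at 13 months and at -1.23 at 21 months, and passed the test at neither age. Aurka, the spindle pole kinase, was at -1.93 at 13 months and at -1.58 at 21 months, likewise without a call. Plk1, the polo kinase, was at -2.93 at 13 months, where it passed, and at -1.29 at 21 months, where it did not. It too is one of the 14, and held 1, 5 and 4 raw counts at 13 months.

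All 4 subunits of the chromosomal passenger complex, which corrects faulty attachments of chromosomes to the spindle, had negative estimates, and Birc5 and Cdca8 fell at both ages. Birc5 (ENSMUSG00000017716, chromosome 11, 117849251 to 117855743), survivin, had 2.94, 2.84 and 2.55 TMM CPM at 3 months, 0.473, 0.678 and 0.269 at 13 months, then 0.594, 0.685 and 0.454 at 21 months. The older ages overlapped each other, far below 3 months. Its log2 fold change was -2.56 ± 0.33 at 13 months (adjusted p = 0.0144) and -2.24 ± 0.31 at 21 months (adjusted p = 0.0202). Incenp (ENSMUSG00000024660, chromosome 19, 9872296 to 9899551), the scaffold of the complex, had 3.28, 3.19 and 3.73 TMM CPM at 3 months, 1.30, 1.67 and 1.48 at 13 months, then 2.71, 2.05 and 2.82 at 21 months. Its 3 ages did not overlap, with the 21-month libraries in the middle. The estimates were -1.19 ± 0.22 at 13 months (adjusted p = 0.0600) and -0.43 ± 0.21 at 21 months (adjusted p = 0.233), neither past the threshold, and at 21 against 13 months 0.76 ± 0.21 (adjusted p = 0.206). With library totals alone in place of TMM the 21-month estimate was 0.17. Cdca8, borealin, was at -1.66 at 13 months and at -1.48 at 21 months. The kinase Aurkb, which had 3 raw counts in its lowest library at each older age, was at -1.93 at 13 months and at -1.67 at 21 months.

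The centromere and kinetochore group, the largest with 10 genes, had 6 members that fell at 13 months (Cenpa, Cenpe, Cenpf, Ndc80, Knl1 and Sgo2a) and 7 at 21 months, these 6 and Sgo1. Cenpf (ENSMUSG00000026605, chromosome 1, 189640606 to 189688086), a protein of the outer kinetochore, had 11.8, 16.8 and 10.6 TMM CPM at 3 months, 2.13, 1.93 and 0.761 at 13 months, then 3.23, 2.67 and 2.41 at 21 months. Each age kept to its own range. The log2 fold change was -3.04 ± 0.35 at 13 months (adjusted p = 0.00987) and -2.23 ± 0.32 at 21 months (adjusted p = 0.0211). Cenpe (ENSMUSG00000045328, chromosome 3, 135212537 to 135273611), a kinesin that moves chromosomes to the spindle equator, had 6.10, 6.95 and 4.83 TMM CPM at 3 months, 0.769, 1.93 and 0.806 at 13 months, then 1.63, 1.66 and 1.498 at 21 months. Its 21-month values lay within the range of the 13-month ones. It fell by 2.35 ± 0.34 at 13 months (adjusted p = 0.0221) and by 1.90 ± 0.33 at 21 months (adjusted p = 0.0308).

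The 4 subunits of the Ndc80 complex, the kinetochore's grip on microtubules, gave -2.12 for Ndc80, -2.91 for Nuf2, -1.81 for Spc24 and -2.15 for Spc25 at 13 against 3 months, and -1.53, -1.80, -0.89 and -1.38 at 21 against 3 months. Of these Ndc80 passed the test, at both ages, and differences between the 4 were not tested. Ndc80, Nuf2 and Spc24 are among the 14 genes that needed their 3-month libraries to pass the filter. Ndc80 held 8, 6 and 6 raw counts at 13 months. Cenpa, the histone variant that marks the centromere, was at -1.83 at 13 months and at -1.21 at 21 months. Knl1, the platform of the checkpoint proteins, was at -2.48 at 13 months and at -1.77 at 21 months. Of the shugoshins, which protect centromeric cohesion, Sgo2a was at -2.53 at 13 months and at -1.91 at 21 months. Sgo1 was at -0.92 at 13 months, without passing the test, and at -1.46 at 21 months, where it passed. Sgo1 had 3.63, 2.91 and 2.21 TMM CPM at 3 months, 1.66, 1.77 and 1.21 at 13 months, then 0.928, 1.15 and 1.09 at 21 months. It was the gene whose 21-month libraries all lay below the 13-month ones, with a log2 fold change of -0.54 ± 0.27 at 21 against 13 months (adjusted p = 0.362).

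Of the 5 genes of the spindle checkpoint and the anaphase-promoting complex, Bub1, Bub1b and Ube2c fell at 13 months and Ttk and Ube2c at 21 months. Bub1, Ttk and Ube2c are among the 14 genes that needed their 3-month libraries to pass the filter. Bub1b (ENSMUSG00000040084, chromosome 2, 118598211 to 118641591), the checkpoint protein BubR1, had 4.55, 5.18 and 3.59 TMM CPM at 3 months, 1.54, 1.20 and 1.70 at 13 months, then 2.04, 2.70 and 2.13 at 21 months. The 3 ages were separate, with 21 months in the middle. The log2 fold change was -1.58 ± 0.24 at 13 months (adjusted p = 0.0235) and -0.95 ± 0.23 at 21 months (adjusted p = 0.0609). Cdc20 (ENSMUSG00000006398, chromosome 4, 118432901 to 118437352), which activates the anaphase-promoting complex, had 3.63, 4.54 and 2.28 TMM CPM at 3 months, 0.828, 1.10 and 0.179 at 13 months, then 0.743, 0.973 and 0.681 at 21 months. Its libraries spread most at 3 and 13 months, and no older library reached the 3-month range. The estimates were -2.33 ± 0.50 at 13 months (adjusted p = 0.116) and -2.11 ± 0.48 at 21 months (adjusted p = 0.0565). Ube2c, the ubiquitin-conjugating enzyme of the same complex, was at -3.12 at 13 months and at -2.54 at 21 months. The checkpoint kinases Bub1 and Ttk were at -2.94 and -2.68 at 13 months and at -1.41 and -3.10 at 21 months, where Ttk held 7, 6 and 1 raw counts.

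Spindle assembly and microtubule-binding genes numbered 6, of which Nusap1, Tpx2 and Aspm fell at 13 months and these and Hmmr and Ckap2l at 21 months. Aspm (ENSMUSG00000033952, chromosome 1, 139454772 to 139494091), a spindle pole protein, had 5.13, 6.81 and 4.76 TMM CPM at 3 months, 1.18, 0.835 and 0.716 at 13 months, then 2.08, 2.02 and 1.36 at 21 months. No library of one age reached the range of another. It changed by -2.62 ± 0.28 at 13 months (adjusted p = 0.00914) and by -1.60 ± 0.26 at 21 months (adjusted p = 0.0276), and at 21 against 13 months by 1.01 ± 0.28 (adjusted p = 0.206). Ckap2l (ENSMUSG00000048327, chromosome 2, 129268210 to 129297212), a spindle protein of neural progenitors and other dividing cells, had 5.07, 6.60 and 4.49 TMM CPM at 3 months, 2.48, 1.51 and 1.21 at 13 months, then 1.37, 1.51 and 1.91 at 21 months. Its 21-month values lay within the range of the 13-month ones, and all were below 3 months. It was at -1.64 ± 0.29 at 13 months (adjusted p = 0.0560) and at -1.75 ± 0.29 at 21 months (adjusted p = 0.0297). Nusap1, which bundles spindle microtubules, was at -3.04 at 13 months and at -1.999 at 21 months. Tpx2, which activates Aurora A on the spindle, was at -2.88 at 13 months and at -2.16 at 21 months. The microtubule-binding Hmmr was at -2.39 at 13 months and at -2.08 at 21 months. Tacc3, which stabilises the fibres that hold the kinetochores, had the smallest estimates of the group, -1.11 at 13 months and -1.03 at 21 months, and passed at neither age.

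The 9 mitotic kinesins had 4 members that fell at 13 months, Kif4, Kif11, Kif14 and Kif20b, and 3 at 21 months, the first 3 of these. Kif11 (ENSMUSG00000012443, chromosome 19, 37376403 to 37421859), the motor that pushes the spindle poles apart, had 7.49, 7.31 and 5.66 TMM CPM at 3 months, 1.72, 1.46 and 0.940 at 13 months, then 1.97, 2.13 and 1.498 at 21 months. The older ages overlapped. It fell by 2.32 ± 0.26 on the log2 scale at 13 months (adjusted p = 0.00987) and by 1.86 ± 0.25 at 21 months (adjusted p = 0.0191). Kif20b (ENSMUSG00000024795, chromosome 19, 34922361 to 34975745), a kinesin of the midzone and midbody, had 5.47, 5.68 and 6.83 TMM CPM at 3 months, 1.72, 2.77 and 1.79 at 13 months, then 3.23, 3.03 and 2.91 at 21 months. All 3 ages were separate. Its estimates were -1.52 ± 0.22 at 13 months (adjusted p = 0.0221) and -0.97 ± 0.21 at 21 months (adjusted p = 0.0533). Kif15, which works beside Kif11, was at -2.21 at 13 months and at -0.84 at 21 months, without a call. Kif4, a chromosome-bound motor, was at -1.94 at 13 months and at -2.31 at 21 months. Kif14, a motor of the midbody, was at -2.94 at 13 months and at -2.13 at 21 months. The 4 others, the depolymerase Kif2c, Kif18b and the cytokinesis motors Kif20a and Kif23, ranged from -2.74 to -1.38 at 13 months and from -1.46 to -0.94 at 21 months, with no call. Kif14, Kif18b and Kif2c are among the 14 genes that needed their 3-month libraries to pass the filter. Kif14 held 2, 6 and 3 raw counts at 13 months.

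**Figure D5:**
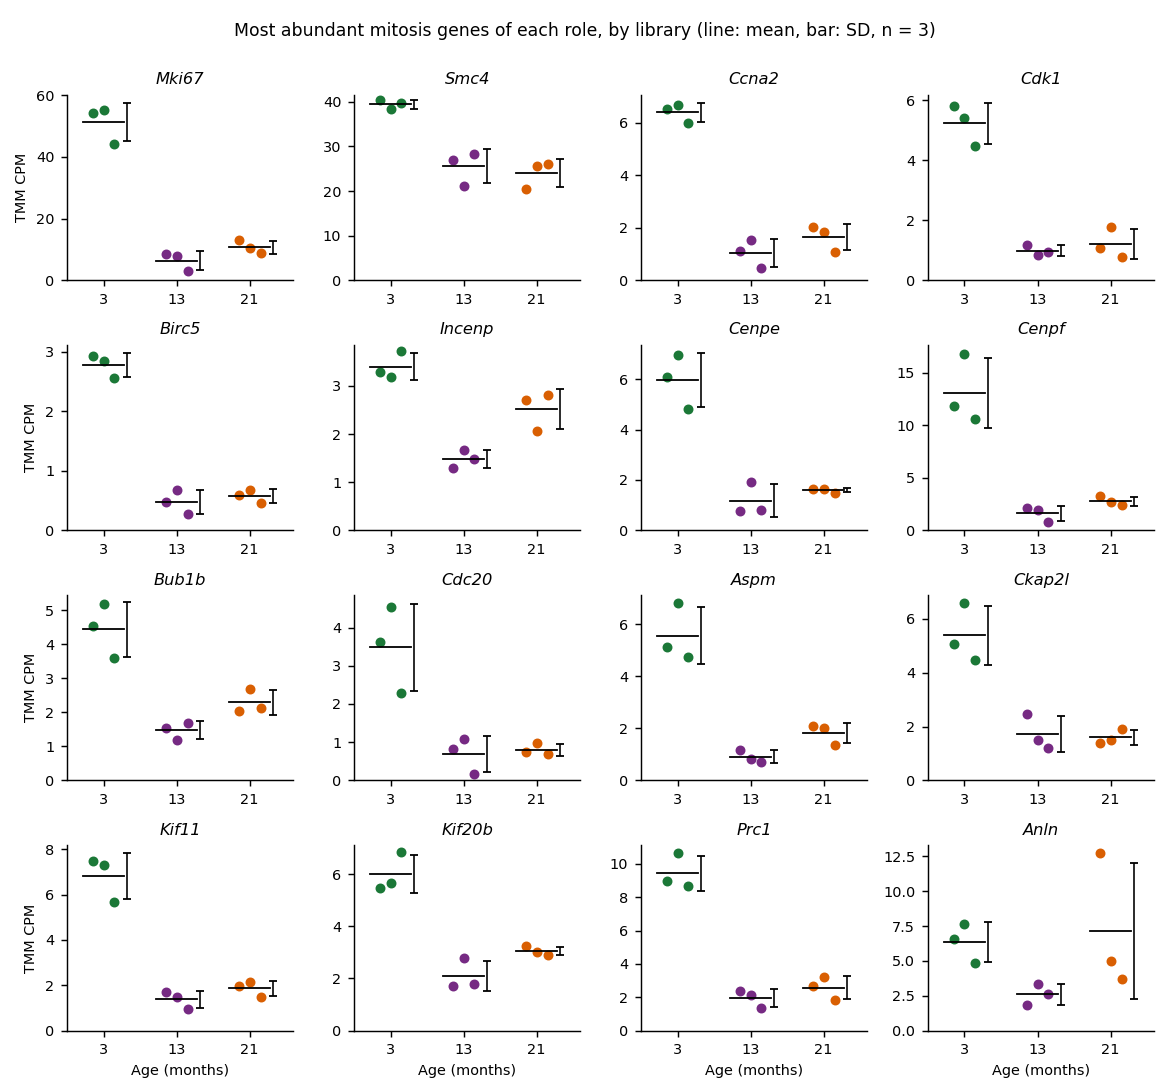
TMM CPM (y axis, from 0) of the 2 most abundant members of each role group in the 9 libraries at 3, 13 and 21 months, 1 point per library, with the mean (line) and SD (bar, n = 3). In 15 of the 16 panels every older library lies below the 3-month libraries, and in the panel of Anln 1 library at 21 months, at 12.7 TMM CPM, lies above them.

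Of the 7 genes of the central spindle and cytokinesis, Prc1, Ect2 and Iqgap3 fell at both ages. Prc1 (ENSMUSG00000038943, chromosome 7, 80294450 to 80316259), which bundles the microtubules of the central spindle, had 8.98, 10.6 and 8.69 TMM CPM at 3 months, 2.37, 2.14 and 1.34 at 13 months, then 2.67, 3.21 and 1.82 at 21 months. The older ages overlapped. It changed by -2.28 ± 0.27 at 13 months (adjusted p = 0.0111) and by -1.87 ± 0.26 at 21 months (adjusted p = 0.0202). Anln (ENSMUSG00000036777, chromosome 9, 22332012 to 22389188), anillin, the scaffold of the contractile ring, had 6.57, 7.66 and 4.83 TMM CPM at 3 months, 1.83, 3.34 and 2.64 at 13 months, then 12.7, 4.97 and 3.72 at 21 months. The value of 12.7 belongs to 21-month replicate 1, the library with the prostate transcripts, and their part in it was not tested. The estimates were -1.28 ± 0.45 at 13 months (adjusted p = 0.514) and 0.17 ± 0.43 at 21 months (adjusted p = 0.829). Without 21-month replicate 1 the 21-month estimate was -0.54, and with replicate 3 alone it was -0.77. Ect2, which activates RhoA at the cleavage site, was at -1.85 at 13 months and at -1.40 at 21 months, and the scaffold protein Iqgap3 at -3.10 and at -2.04 at these ages. Racgap1, Cep55 and the kinase Cit, of the midbody and abscission, were at -2.21, -1.72 and -1.83 at 13 months and at -1.18, -1.11 and -0.71 at 21 months, with no call. Cep55 and Cit are among the 14 genes that needed their 3-month libraries to pass the filter.

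Further genes of mitosis, none of them among the 56, were read from 6 lists. Of 135 such genes 128 were tested. The edgeR test called 14 lower and 0 higher at 13 against 3 months, beside 0.411% lower and 0.0436% higher over all tested genes. At 21 against 3 months it called 14 lower and 0 higher, beside 0.766% lower and 1.26% higher over all tested genes. At 21 against 13 months it called 0, with 18 at an unadjusted p under 0.05, a share of the list below the 15.7% of all tested genes. Of the 128, 43 and 51 had an unadjusted p under 0.05 at 13 and 21 against 3 months. The shares over all tested genes were 7.24% and 24.4%. The kinase Nek2, which separates centrosomes, was at -3.39 ± 0.24 (adjusted p = 0.00160) and the kinase Pbk at -3.82 ± 0.44 (adjusted p = 0.00996) at 13 against 3 months, and Mastl, the Greatwall kinase, at -2.12. The spindle genes Ckap2, Kifc1, Kif22 and Dlgap5 were at -2.99, -2.26, -2.72 and -2.77. Ncapg2 of condensin II was at -1.42, Cdca5, the cohesin protector sororin, at -2.44, the kinetochore gene Knstrn at -2.27, and Arhgap11a, Cdca2 and Pimreg at -1.59, -1.50 and -3.23. In the list of other checkpoint and anaphase-promoting complex genes 0 of 21 were called at either age, with 2 at 13 months and 5 at 21 months at an unadjusted p under 0.05, beside 7.24% and 24.4% of all tested genes in these comparisons, and medians of -0.15 at 13 months and -0.20 at 21 months. The 5 remaining lists had medians from -0.69 to -0.14 at 13 against 3 months. Many of these genes also serve cells that do not divide, and the difference between these lists and the 56 genes was not tested.

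The regulators upstream and the genes of DNA replication, the phase that precedes mitosis, were read in the same way. Of 21 tested genes of the RB, E2F and MuvB regulators 0 were called at either age, with medians of -0.05 at 13 months and 0.04 at 21 months. At an unadjusted p under 0.05 there were 3 at 13 months and 5 at 21 months, beside the same 7.24% and 24.4% of all tested genes. Of 36 tested DNA replication genes 3 were lower and 0 higher at 13 against 3 months: Clspn (-3.59), Pole (-1.59) and Uhrf1 (-2.20). At 21 against 3 months 3 were lower, Pole, Clspn and Rrm2. The median of the replication list was -0.42 at both ages, with 35 of 36 estimates negative at each. Over all tested genes 48.6% and 49.3% of estimates were negative at 13 and 21 months. Lower calls made up 0.411% and 0.766% of all tested genes at these ages. Of the replication genes 15 had an unadjusted p under 0.05 at each age, beside 7.24% and 24.4% of all tested genes.

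Markers of cell types that the tissue could hold were read in the same libraries. All 10 markers of the secretory epithelium were detected, and their summed level was 645100 to 684900 TMM CPM at 3 months, 552100 to 736200 at 13 months and 137800 to 553500 at 21 months. The edgeR test called 0 of the 10 in any comparison, and 0, 2 and 2 had an unadjusted p under 0.05 at 13 against 3, 21 against 3 and 21 against 13 months, beside 7.24%, 24.4% and 15.7% of all tested genes. The 7 general epithelium markers summed to 971 to 1073, 626 to 794 and 547 to 900 TMM CPM at 3, 13 and 21 months, with 0 called and 2, 1 and 1 at an unadjusted p under 0.05 in the same comparisons. The 5 basal epithelium markers summed to 54.2 to 64.0, 34.5 to 41.3 and 30.9 to 72.8 TMM CPM at 3, 13 and 21 months, with 1 called lower at 13 against 3 months, Krt14. The 8 fibroblast markers summed to 522 to 569, 224 to 367 and 410 to 863 TMM CPM at 3, 13 and 21 months, with 0 called and 2, 2 and 4 at an unadjusted p under 0.05. Macrophage markers summed to 77.2 to 90.4, 75.2 to 110.6 and 138 to 259 TMM CPM at 3, 13 and 21 months, with 4 of 8 higher at 21 against 3 months. T and NK cell markers summed to 3.69 to 5.80, 8.06 to 18.8 and 16.4 to 22.8 TMM CPM at 3, 13 and 21 months, with 1 of 10 higher at 13 and 4 at 21 against 3 months. Of the 5 tested B and plasma cell markers 1, Jchain, was higher at 21 against 3 months, beside 1.26% of all tested genes. Calls were 0 among 6 endothelial, 8 smooth muscle, 5 adipocyte, 4 skeletal muscle, 2 nerve, 1 prostate and 1 germ cell markers tested. The other markers of these lists had too few counts to be tested. The unadjusted p was under 0.05 for all 5 tested adipocyte markers at 21 against 3 and at 21 against 13 months. At 21 against 13 months the same held for 4 of 6 endothelial markers. It held for all 8 macrophage markers in both comparisons. Of the 10 T and NK cell markers it held for 9 at 21 against 3 and 2 at 21 against 13 months. Over all tested genes the shares were 24.4% and 15.7% in these 2 comparisons. The 8 germ cell markers summed to 1.67 to 3.53 TMM CPM over the 9 libraries, with Prm1 at 0 in all. The part of any of these cell types in the level of the mitosis genes was not tested.

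The members lie on 16 chromosomes, with 10 on chromosome 2. In the annotation 13 share exon bases with a gene on the opposite strand, from 53 bases for Cdc20 with Elovl1 to 2455 for Sgo2a with Kctd18. The next largest overlaps are Kif20a with Cdc23 (1271 bases), Ncapg with Lcorl (944), Prc1 with Rccd1 (911), Kif4 with Pdzd11 (832), Ube2c with Tnnc2 (592) and Ccna2 with Exosc9 (510). A further 3 (Top2a, Ncapd2 and Foxm1) share bases with a gene on the same strand, and Ccnb1, Ccnb2 and Kif4 have a pseudogene named after them. The strand setting of the counting and its handling of multiply mapped reads are not given in the sources used here. Reads in the shared bases, or that match a pseudogene equally well, therefore cannot be told apart from those of the partner.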

How the data were processed

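Mouse seminal vesicle RNA was sequenced at 3 ages (3 libraries each). The authors deposited raw counts for Ensembl genes, and the submitters' processing notes name HISAT2, featureCounts and GRCm38. Versions, gene annotation and strand setting are not given in the sources used here. All 9 columns were mapped by their names, and 0 were left unmapped. Symbols and coordinates came from GENCODE M21, which matched 53274 of 53379 identifiers.

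Genes were filtered with filterByExpr of edgeR 4.0.16 (minimum count 10, minimum total 15), library sizes were scaled by TMM, and a model with 1 term for each age was fitted across the 9 libraries in R 4.3.3. Ages were compared with the quasi-likelihood F test (residual degrees of freedom 6), with Benjamini-Hochberg adjustment over 16067 genes and a threshold of 0.05. SE is the absolute log2 fold change over the square root of F. The steps were tested on simulated data.

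The members and lists were chosen with earlier results of these data known. Values in every library are given for the 2 most abundant members of each role, the largest and the smallest change, and, after its values were seen, Sgo1. In the other lists up to 4 called genes are named, by smallest p. The alternatives were DESeq2 1.42.0, limma-voom (limma 3.58.1), a robust spread, 3 other scalings, 2 other filters, a replicate block, only the 6 libraries compared, and leaving out libraries. Replicate numbers were not used as pairs: same-numbered libraries correlated at -0.17 to 0.208 in their deviations from the age means. Low counts of the members were limiting in the older libraries, where 14 members reached 3 counts or fewer in at least 1 library. Isoforms and splicing were not analysed here.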

Additional observations from a re-analysis of the deposited data

How the results depend on the processing

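Over 20 alternatives the median log2 fold change of the members stayed between -2.37 and -1.85 at 13 against 3 months, between -1.94 and -0.90 at 21 against 3 months and between 0.36 and 1.14 at 21 against 13 months. The estimate was negative at every setting that tested the gene for 55 members at 13 against 3 months (all but Mybl2) and for 52 at 21 against 3 months (all but Anln, Incenp, Mybl2 and Smc2). All settings tested 27 of the 56, and the other 29 lack an estimate in at least 1. Counts of members past the threshold moved more, and the cause was not tested except where a setting leaves fewer genes or libraries.

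At 13 against 3 months the 30 lower members became 47 with DESeq2, 19 with library totals alone, 18 of 27 under the stricter filter of 10 counts in every library (median -1.85), 46 of 54 with only the 6 libraries compared and 46 with 21-month replicate 3 as the only 21-month library. Leaving out each library in turn gave 0 to 42. At 21 against 3 months the 29 lower members became 12 of 27 under the stricter filter and 6 with 21-month replicate 3 as the only 21-month library (median -1.94). Leaving out each library gave 0 to 35. At 21 against 13 months the 0 higher members became 1 with DESeq2 and 12 with library totals alone, and leaving out each library gave 0 to 5. No member was higher against 3 months or lower at 21 against 13 months at any setting, at an adjusted p under 0.05. Library totals alone moved the median of all genes to 0.07, 0.62 and 0.55 in the 3 comparisons, and the members' medians at 21 months, -0.90 against 3 months and 1.14 against 13 months, are to be read relative to these.

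With a replicate block the counts were 20 lower at 13 against 3 months, 33 at 21 against 3 months and 0 in either direction at 21 against 13 months, with medians of -2.24, -1.57 and 0.58. Only Bub1b and Kif20b, at 13 against 3 months, lost their call among the members given in full, and Cdc20 gained one at 21 against 3 months. The numbers are not known to pair libraries.

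Of 25 calls on the members given in full, Sgo1 included, 19 held under every alternative that tested them and kept all libraries of the ages compared. Library totals ended 5, the stricter filter 2, the block 2 and the 6-library fit 2. The stricter filter did not test Ccnb1 and Birc5, which had libraries under 10 counts, so it is no check on their calls. All 25 ended without 3-month replicate 1 or 2, and 20 without replicate 3. Signs reversed for uncalled members: Mybl2 at 13 against 3 months ranged from -0.38 to 0.058 when single libraries were left out, and at 21 against 3 months it was -0.40 with 21-month replicate 3 alone; Incenp at 21 against 3 months was 0.17 with library totals alone; Anln at that age ranged from -0.54 to 0.46 over the fits that leave out 1 library, turning negative without 3-month replicate 3 (-0.00038) and 21-month replicate 1, and was -0.77 with 21-month replicate 3 alone. Low counts limit the older ages most: 16 values at 13 months and 2 at 21 months rest on 3 counts or fewer. Intervals and floors would cover counting error only.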
